A study of Mus musculus with 12 samples.

Results

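The genes described here act in the making and repair of meiotic DNA breaks. They are *Prdm9*, *Spo11*, *Mei1*, *Dmc1*, *Msh4*, *Msh5* and *Mlh3*, chosen by symbol, and all 7 were found among the 37675 genes listed for each library. The RNA came from whole testes of C57BL/6NHsd mice at postnatal day (PND) 7, 14, 17, 21 and 28, with 2 mice at each age. No mouse was treated or carried a stated mutation. These ages follow the first wave of spermatogenesis: the germ cells of the youngest testes are spermatogonia, those of PND 14 and 17 hold spermatocytes at successively later stages, and spermatids are present at PND 21 and begin to elongate by PND 28. A library therefore mixes germ cells and somatic cells, in proportions that change with age.

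Meiotic recombination begins when PRDM9, a histone methyltransferase with zinc fingers, marks hotspots at which SPO11, a topoisomerase-like protein, cuts the DNA with the help of partners such as MEI1. DMC1, a recombinase found in meiotic cells, coats the resected ends and searches the homologous chromosome. The MSH4–MSH5 complex then stabilises joint molecules, and MLH3 acts at the sites that become crossovers in pachytene spermatocytes.

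In the mm9 annotation all 7 genes were protein coding, and none of their exon bases was shared with another annotated gene. *Prdm9* (ENSMUSG00000051977) lies on chromosome 17 at 15680043–15701318 on the minus strand. *Spo11* (ENSMUSG00000005883) lies on chromosome 2 at 172803201–172819077 on the plus strand. *Mei1* (ENSMUSG00000068117) lies on chromosome 15 at 81900426–81957244 on the plus strand, and *Dmc1* (ENSMUSG00000022429) on the same chromosome at 79391930–79435529 on the minus strand. *Msh4* (ENSMUSG00000005493) occupies 153520111–153569102 on chromosome 3, *Msh5* (ENSMUSG00000007035) occupies 35165550–35183690 on chromosome 17, and *Mlh3* (ENSMUSG00000021245) occupies 86575479–86611541 on chromosome 12, all on the minus strand. The summed exon length used for RPKM (read counts scaled by exon length and library size) ran from 2207 bp for *Dmc1* to 5542 bp for *Mlh3*. Counts were made per gene, so isoforms of one gene are not separated here.

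RefSeq gave the promoter sequence of 6 of the 7 genes, all but *Spo11*, on the GRCm38.p6 build, with 8 annotated starts because *Prdm9* and *Mlh3* each have 2. The 250 bases before each start were searched on both strands for 5 motifs, which were chosen with the sequences in view. The motifs were the one reported for STRA8, the transcription factor that starts meiosis (CNCCTCAG), the MYB core (AACNG), the full cAMP response element (TGACGTCA), the E-box CACGTG and the CCAAT box (CCAAT). The STRA8 motif was present before 1 *Prdm9* start, at 41 to 34 bases upstream, and before *Msh5*, at 82 to 75 bases upstream on the opposite strand. It was present in 6.42% of all 32851 promoters of the same length. The MYB core was found before *Prdm9*, *Msh4*, *Msh5* and *Mlh3* and in 74.2% of all promoters. The CCAAT box was found before *Prdm9*, *Msh5* and *Mlh3* and in 33.8% of all promoters. Neither the cAMP response element (1.55% of all promoters) nor the E-box (6.02%) was found before any of the 6 genes, and *Dmc1* and *Mei1* had none of the 5 motifs in this window. The sequences of *Prdm9* and *Msh5* were picked for show because they hold the STRA8 motif, and that of *Msh4* because its protein pairs with MSH5. They read 5′ to 3′ along the gene and end at the base before the start, and capitals mark the STRA8 motif, the MYB core and the CCAAT box, which did not overlap. A match is a run of letters and not a measured binding site. The RefSeq starts were not matched to the starts of the genes as counted on mm9, so a window need not lie before the counted gene.
Prdm9, chr17:15564355-15564604, minus strand: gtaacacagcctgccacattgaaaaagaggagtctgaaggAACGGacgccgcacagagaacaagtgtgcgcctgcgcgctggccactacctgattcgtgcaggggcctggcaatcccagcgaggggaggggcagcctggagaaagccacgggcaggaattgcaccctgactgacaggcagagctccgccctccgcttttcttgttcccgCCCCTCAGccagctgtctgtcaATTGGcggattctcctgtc
Msh5, chr17:35046623-35046872, minus strand: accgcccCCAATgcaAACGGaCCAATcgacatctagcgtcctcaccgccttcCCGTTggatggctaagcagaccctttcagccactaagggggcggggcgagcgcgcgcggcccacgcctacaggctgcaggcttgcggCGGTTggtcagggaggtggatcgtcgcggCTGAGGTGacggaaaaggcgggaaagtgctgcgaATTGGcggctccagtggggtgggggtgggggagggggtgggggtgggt
Msh4, chr3:153904892-153905141, minus strand: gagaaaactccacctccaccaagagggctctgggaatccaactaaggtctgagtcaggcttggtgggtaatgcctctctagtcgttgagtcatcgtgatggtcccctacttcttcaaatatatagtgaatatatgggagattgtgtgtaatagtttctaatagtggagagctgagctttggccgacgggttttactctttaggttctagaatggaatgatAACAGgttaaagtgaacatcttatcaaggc

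In the comparisons below, counts are given as CPM (counts scaled to a common library size) after TMM normalisation, and a gene was called changed when edgeR's quasi-likelihood test gave a Benjamini-Hochberg adjusted p below 0.05 over the 16860 genes tested together with a change of 2-fold or more. The mice held 3994026 to 13559548 gene counts each, so that a count of 0 allowed up to 0.209 to 0.726 CPM (3 counts; counting error only). All 7 genes passed the filter on low counts and had counts in every mouse, from 17 (*Spo11*, PND 7 mouse 2) to 1567 (*Mlh3*, PND 17 mouse 1). Each age had 2 mice, so an exact permutation test of a pair of ages cannot go below p = 0.333, and the fits rest on the spread pooled over all 10 mice.

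Among marker genes of the testicular cell types, the summed pachytene level had a higher mean at each later age, and 1 library stood apart. The summed level of 7 elongating spermatid markers was 231 CPM in PND 14 mouse 1 but 9.6 CPM in PND 14 mouse 2, against 10.2 and 10.9 CPM at PND 17 and 5790 and 6950 CPM at PND 28. *Prm1*, the gene of a sperm protamine, was at 52.7 CPM in PND 14 mouse 1 and 1.05 CPM in its age mate. That library also had more Sertoli marker RNA, 1720 CPM against 874 CPM over 7 genes, and less of the 8 pachytene markers, 1630 CPM against 2610 CPM. The PND 7/14 values of the 7 genes and of the named pathway genes, and the calls of the pooled ages, are therefore given with and without it. The part of this difference in the results was not tested.

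**Figure D1:**
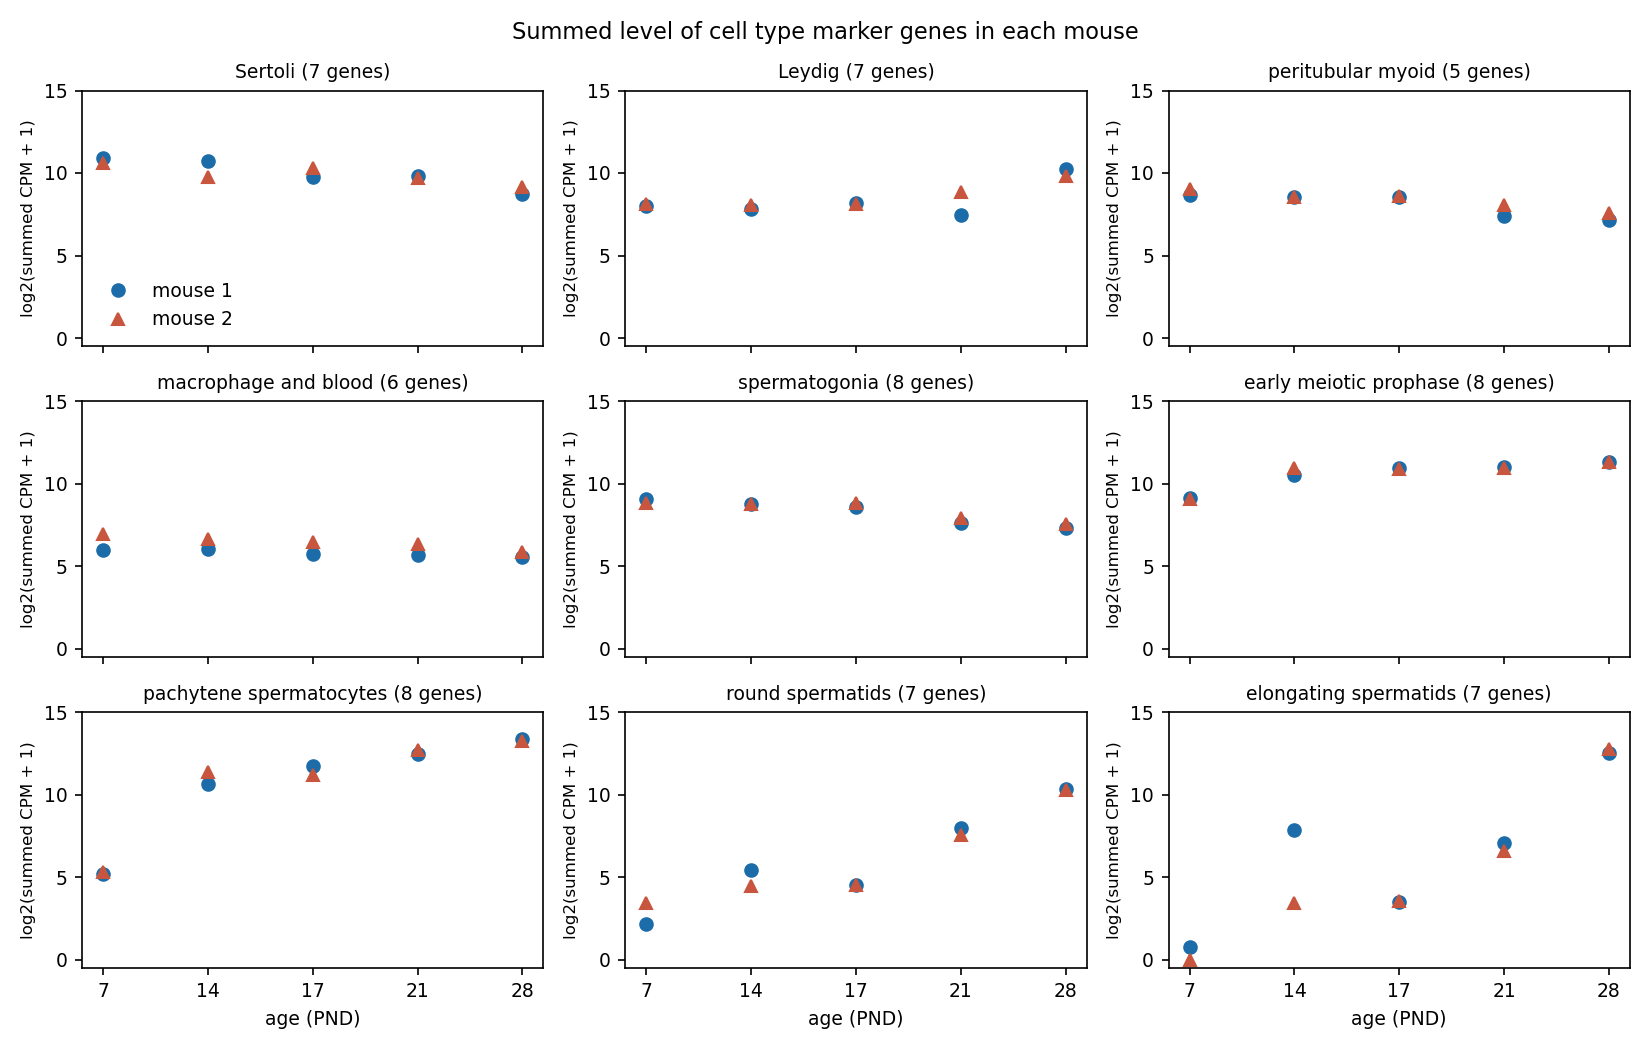
Summed CPM of 9 lists of cell type marker genes, as log2(summed CPM + 1), in each mouse by age; circles are mouse 1 and triangles mouse 2. The elongating spermatid markers of PND 14 mouse 1 lie at 231 CPM, far above the 9.6 CPM of the other PND 14 mouse, and the pachytene sum goes from a mean of 37.4 CPM at PND 7 to 10300 CPM at PND 28.

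Over the 5 ages as a whole, each of the 7 genes passed edgeR's F test for any change, with adjusted p from 4.82e-05 for *Spo11* to 0.0483 for *Msh5*. The background was high, since 57.5% of all genes tested passed it. The calls of *Mei1* (adjusted p = 0.0418) and *Msh5* held in 9 of 20 alternative fits each, with adjusted p up to 0.139 and 0.222. Those of the other 5 genes held in all 20. In whole testis, fewer cells of a type and less RNA per cell cannot be told apart, and this applies to every value below.

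**Figure D2:**
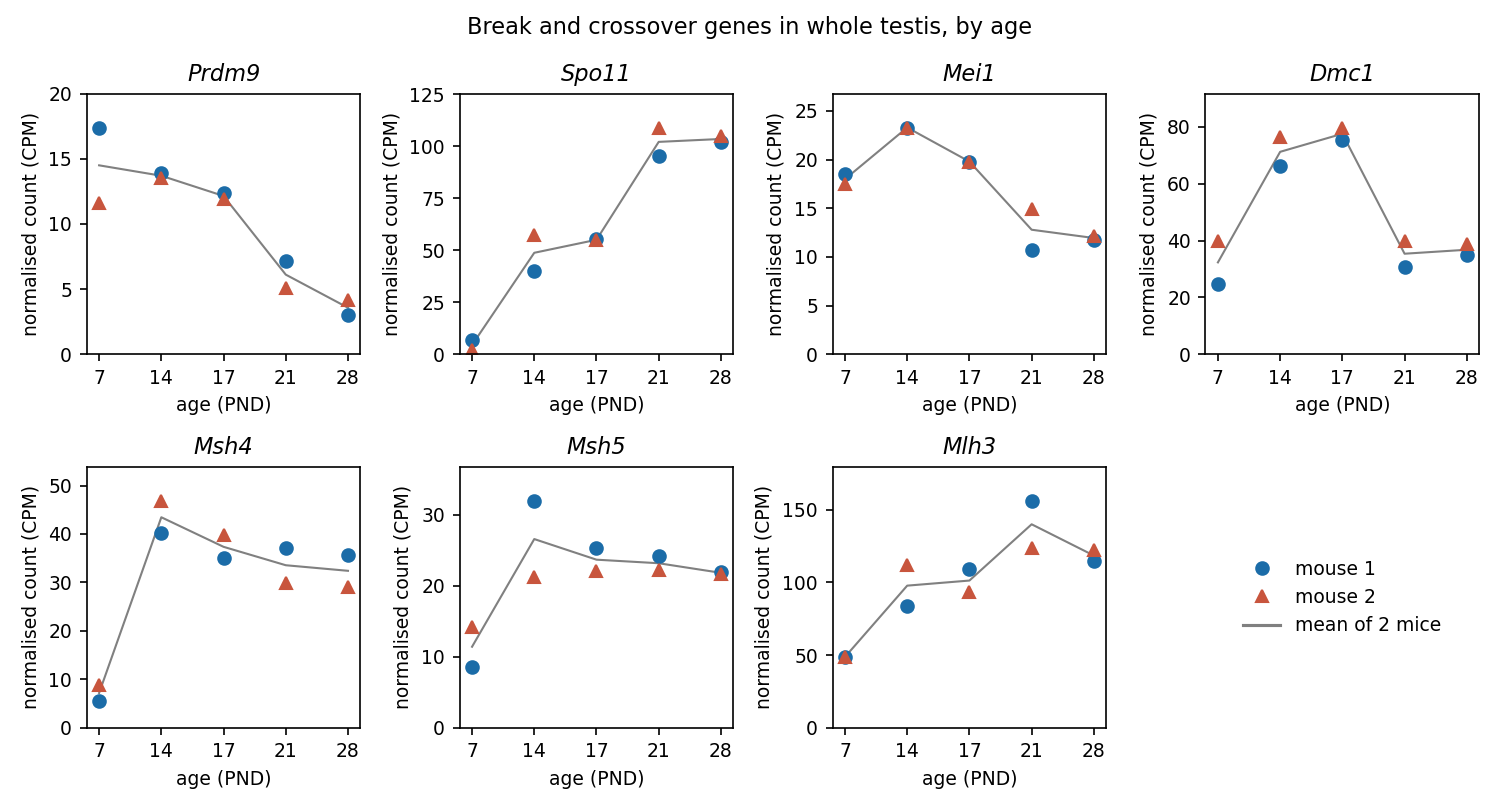
Normalised counts (CPM, linear axis from 0) of the 7 genes by age, with 1 point per mouse (circles mouse 1, triangles mouse 2) and a line through the mean of the 2 mice. *Spo11* goes from a mean of 4.5 CPM at PND 7 to 104 CPM at PND 28, *Dmc1* is highest at PND 14 and 17, and *Prdm9* is lowest at PND 28.

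The gene of the hotspot mark, *Prdm9*, was the only one of the 7 called as a fall from PND 7 to 28. Its CPM values were 17.4 and 11.6 at PND 7, 13.9 and 13.5 at PND 14, 12.4 and 11.9 at PND 17, 7.16 and 5.07 at PND 21, and 3 and 4.15 at PND 28. The 6 mice of the first 3 ages were all above the 4 mice of the last 2. The log2 fold change from PND 7 to 28 was -2.04 (SE 0.38, edgeR adjusted p = 0.000878), a 4.11-fold difference. From PND 7 to 14 it was -0.08 (SE 0.34, adjusted p = 0.884), or -0.13 without PND 14 mouse 1, and no step between neighbouring ages passed the test, the largest being PND 17/21, where the mean went from 12.1 to 6.11 CPM (edgeR adjusted p = 0.104). With both ages on either side pooled, PND 21 and 28 lay below PND 14 and 17 by -1.48 (SE 0.27, adjusted p = 0.00115). Marker sums of other cells moved the same way, the mean of 8 spermatogonial markers being 507, 440, 422, 220 and 175 CPM and that of 7 Sertoli markers 1750, 1300, 1060, 858 and 494 CPM from PND 7 to 28, and their part in the fall of *Prdm9* was not tested. Within the Sertoli list *Trf* was called higher from PND 7 to 28 (1.19, SE 0.42, edgeR adjusted p = 0.0296). The other 6 were called lower, against 23.4% of all genes. The late values of *Prdm9* rest on few reads, 18 to 30 per mouse at PND 21 and 28. Of the 28 exons listed for the gene, 3 to 7 had more than 10 reads in each library of PND 7, 14 and 17, and at most 1 had that many at PND 21 and 28.

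*Spo11*, whose protein makes the breaks, had the opposite course. It stood at 6.71 and 2.28 CPM at PND 7, 40.2 and 57.4 at PND 14, 55.2 and 54.9 at PND 17, 95.2 and 109 at PND 21, and 102 and 105 at PND 28. Every mouse of PND 14 and 17 was above both PND 7 mice and below all 4 older mice. The rise from PND 7 to 14 was 3.40 on the log2 scale (SE 0.39, adjusted p = 0.000177), or 10.5-fold, and it was 3.60 without PND 14 mouse 1. The PND 7 level was uneven, with 67 counts in mouse 1 and 17 in mouse 2, and the rise was 4.44 when PND 7 mouse 1 was left out and 2.87 when PND 7 mouse 2 was. The later step did not meet both criteria. PND 17/21 gave 0.89 (SE 0.34, adjusted p = 0.119), and PND 21 and 28 against PND 14 and 17 gave 0.99 (SE 0.24, adjusted p = 0.00694), at a fold of 1.99. That pooled value was 1.13 and called with RLE scaling and with DESeq2. By PND 28 the gene was 22.5-fold higher than at PND 7 (log2 4.49, SE 0.41, adjusted p = 6.03e-06). Reads were spread over the gene at the older ages, with more than 10 reads in 13 to 20 of its 23 listed exons from PND 14 on. In the PND 7 libraries, counted per barcode, at most 2 exons had that many. With so few *Spo11* reads at PND 7, few exons could pass, however the reads were spread. The 5 annotated transcripts of *Spo11*, 3 of them coding, were counted together, so the values do not say which form was present.

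*Mei1*, a gene without which breaks fail to form, had the narrowest range of the 7. It had 18.5 and 17.5 CPM at PND 7, 23.3 and 23.3 at PND 14, 19.8 and 19.8 at PND 17, 10.7 and 14.9 at PND 21, and 11.7 and 12.2 at PND 28. All 4 mice of PND 21 and 28 were below the 6 younger mice. The pooled difference of PND 21 and 28 from PND 14 and 17 was -0.79 (SE 0.20, adjusted p = 0.00711), a 1.73-fold lower level that did not reach 2-fold. With scaling by library totals it was -1.06 and called. No other comparison had an adjusted p below 0.05 for this gene, and PND 7/14 gave 0.37 (SE 0.27, adjusted p = 0.336), or 0.34 without PND 14 mouse 1. At PND 28 both mice were below both PND 7 mice, with a fitted difference of -0.59 (SE 0.28, adjusted p = 0.0842).

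The strand exchange gene *Dmc1* had a transient maximum. Its levels were 24.7 and 40 CPM at PND 7, 66.1 and 76.4 at PND 14, 75.4 and 79.8 at PND 17, 30.8 and 40 at PND 21, and 34.8 and 38.8 at PND 28. The 4 mice of PND 14 and 17 formed one group, clear of the other 6, and the PND 7, 21 and 28 mice overlapped. *Dmc1* rose by 1.14 from PND 7 to 14 (SE 0.27, adjusted p = 0.0123) and fell by 1.13 from PND 17 to 21 (SE 0.27, adjusted p = 0.0227), on the log2 scale. Between PND 7 and 28 the fitted difference was 0.18 (SE 0.27, adjusted p = 0.567). Both calls were sensitive to single mice. The rise was 1.21 and called without PND 14 mouse 1, but it was not called without PND 14 mouse 2 (1.02) or PND 7 mouse 1 (0.86). The fall was not called without PND 17 mouse 1 (-1.17), PND 17 mouse 2 (-1.09) or PND 21 mouse 1 (-0.95). Over the pooled ages the fall was -1.04 (SE 0.19, adjusted p = 0.0012, range of the alternatives 1.34e-06 to 0.00847), and its fold was under 2 with RLE scaling and DESeq2 (-0.90), without PND 14 mouse 2 (-0.98) and without PND 21 mouse 1 (-0.95).

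The partners *Msh4* and *Msh5* rose by unequal amounts. *Msh4* went from 5.51 and 8.87 CPM at PND 7 to 40.1 and 46.8 at PND 14, and stood at 35 and 39.7 at PND 17, 37.2 and 29.9 at PND 21, and 35.7 and 29.1 at PND 28. Its rise to PND 14 was 2.60 (SE 0.30, adjusted p = 0.000158), a 6.08-fold change that was 2.68 without PND 14 mouse 1. *Msh5* had 8.61 and 14.2 CPM at PND 7, 31.9 and 21.2 at PND 14, 25.3 and 22 at PND 17, 24.1 and 22.2 at PND 21, and 21.9 and 21.7 at PND 28. For this gene the rise was 1.22 (SE 0.32, adjusted p = 0.0206), and it rested on PND 14 mouse 1, since it was 0.86 and not called without it. It was 0.93 and not called without PND 7 mouse 1. After PND 14 no step of either gene passed the test, with fitted values between -0.22 and -0.04 and adjusted p of 0.754 or more. *Msh4* remained 4.55-fold above its PND 7 level at PND 28 (log2 2.18, SE 0.30, adjusted p = 9.74e-05). *Msh5* was 1.92-fold above (log2 0.94, SE 0.32, adjusted p = 0.025), under the fold threshold, and its value was 1.10 and called with RLE scaling and with DESeq2.

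*Mlh3*, the gene of the crossover-site protein, was called in 1 step between neighbouring ages, the rise from PND 7 to 14. It measured 48.9 and 48.6 CPM at PND 7, 83.6 and 112 at PND 14, 109 and 93.6 at PND 17, 156 and 124 at PND 21, and 115 and 122 at PND 28. Both PND 7 mice were below the 8 others. PND 14 and 17 overlapped, and both PND 21 mice were above those of PND 17 and of PND 28. PND 17/21 gave 0.46 (SE 0.22, edgeR adjusted p = 0.205). Every mouse of PND 21 and 28 was above every mouse of PND 14 and 17, with a pooled difference of 0.37 (SE 0.16, edgeR adjusted p = 0.0756). The rise to PND 14 was 1.00 (SE 0.23, adjusted p = 0.0102), at a fold of 2.01, on the threshold itself. It was 1.17 without PND 14 mouse 1 and it was not called without PND 14 mouse 2 (0.76), PND 7 mouse 2 (1.01) or PND 21 mouse 1 (0.98), and with DESeq2 or RLE scaling it was 0.99 and not called. By PND 28 the gene had risen from its PND 7 level by 1.28 (SE 0.23, adjusted p = 0.00059), while scaling by library totals gave 0.96.

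Between neighbouring ages the calls fell mostly in the first interval. From PND 7 to 14, 5 of the 7 genes rose (*Spo11*, *Msh4*, *Msh5*, *Dmc1* and *Mlh3*) and none fell, where 18.9% of all genes were called, 13.5% as higher and 5.43% as lower. The median log2 fold change of the 7 was 1.14, and that of all genes was 0.106. From PND 14 to 17, none of the 7 was called, but edgeR called 0% of all genes there, with 769 genes (4.56%) and none of the 7 at an unadjusted p under 0.05. DESeq2 called 1 gene and limma on log2(RPKM + 1) called 6. From PND 17 to 21 the only call was the fall of *Dmc1*, against 10.3% of genes called in either direction 9.29% as higher and 1.05% as lower. From PND 21 to 28 no gene of the 7 was called, with 0 of the 7 at an unadjusted p under 0.05, against 7.66% called among all genes (7.37% higher and 0.297% lower). DESeq2 also called none of the 7 in that interval. From PND 7 to 28, 3 of the 7 rose (*Spo11*, *Msh4* and *Mlh3*) and *Prdm9* fell, where 55.6% of all genes were called (32.2% higher and 23.4% lower). For PND 14 and 17 against PND 21 and 28, the background was 29% (21% higher and 8.03% lower), and *Dmc1* and *Prdm9* fell. With DESeq2 or RLE scaling the calls in that comparison were 1 higher (*Spo11*) and 1 lower (*Prdm9*), and with library totals 0 higher and 3 lower. Without PND 14 mouse 1 the calls were again the falls of *Dmc1* (-1.08) and *Prdm9* (-1.46), and *Spo11* was at 0.89 and *Mei1* at -0.78, both uncalled.

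**Figure D3:**
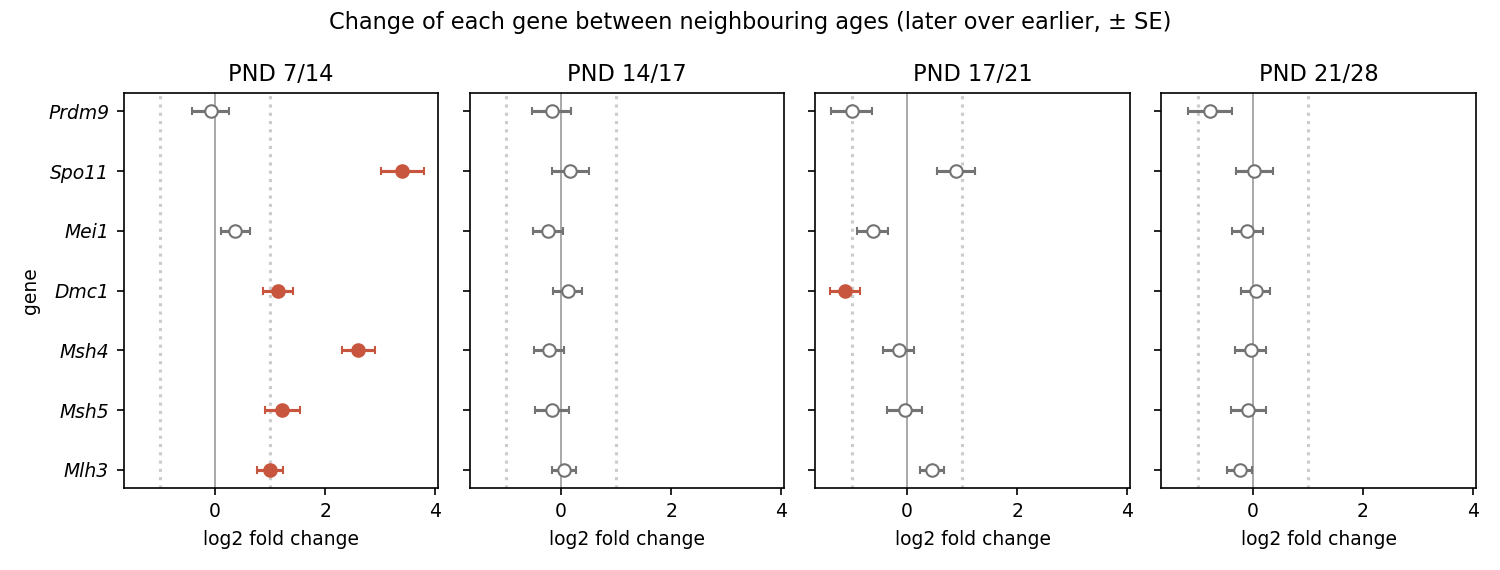
Log2 fold change of each gene (x axis, later over earlier age) with its standard error, in the 4 comparisons of neighbouring ages; filled points passed the adjusted p and 2-fold criteria and dotted lines mark 2-fold. In PND 7/14, 5 genes are called, led by *Spo11* at 3.40 and *Msh4* at 2.60, and in PND 17/21 only *Dmc1*, at -1.13.

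RPKM accounts for length, and the genes were set against each other by it within an age. The length is that of the merged exons of all annotated transcripts, 13 for *Msh5* and 2 for *Dmc1*. It can exceed the length of the RNA present, so the order of the genes is approximate. *Dmc1* had the highest RPKM at PND 7 (15.6 ± 5.39, SD, n = 2), PND 14 (36.7 ± 1.65) and PND 17 (37.9 ± 0.806), with both mice above every other member at each of these ages. At PND 21 *Spo11* (25.7 ± 0.0707) and *Mlh3* (25.3 ± 6.40) were highest and their mice overlapped. By PND 28 *Spo11* led with 22.5 ± 0.721, ahead of *Mlh3* (18.2 ± 0.933) and *Dmc1* (14.1 ± 1.24), none of them overlapping. *Spo11* had the lowest mean RPKM at PND 7 (1.31 ± 0.877), where it overlapped *Msh4* (1.89 ± 0.626), which in turn overlapped *Msh5* (2.24 ± 0.788). *Prdm9* was lowest from PND 14 on, from 3.54 ± 0.262 at PND 14 to 0.685 ± 0.163 at PND 28. At PND 14 the mice of *Spo11* (14.1 ± 2.74) and *Msh4* (12.1 ± 0.636) overlapped, as did those of *Mei1* (6.44 ± 0.375) and *Msh5* (5.52 ± 1.88). All other neighbours in the order were separate in both mice.

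Ratios of 2 genes within a mouse need no scaling between libraries, and they showed that the members did not move as one. For each of the 21 pairs, the log2 ratio of counts (0.5 added to each) was compared between the 4 mice of PND 14 and 17 and the 4 mice of PND 21 and 28 by a two-sided exact permutation test, which treats the 2 ages on each side as one group and cannot go below p = 0.0286. After Benjamini-Hochberg adjustment over the 21 pairs, 15 pairs passed, each at that smallest p (adjusted exact permutation p = 0.04). The adjusted value rests on many pairs reaching the smallest p together, and pairs that share a gene are not independent. The share of all gene pairs that would pass was not computed. Between these pooled ages 54.4% of all genes tested had an unadjusted edgeR p under 0.05, so a passing pair need not be particular to these genes. *Spo11* shifted against every other member. The *Spo11*/*Dmc1* log2 ratio was -0.72, -0.41, -0.45 and -0.54 in the PND 14 and 17 mice and 1.63, 1.44, 1.56 and 1.44 in the PND 21 and 28 mice. The 4 younger and 4 older mice were far apart, with little spread on either side, and the mean shifted by 2.05. Against *Prdm9* the shift was 2.46, the largest of the 21, and against *Mlh3* it was 0.62, the smallest of the 6 *Spo11* pairs. *Dmc1* fell against *Mlh3* by 1.42, against *Msh5* by 0.91 and against *Msh4* by 0.75, all on the log2 scale.

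The other 6 pairs did not pass. *Msh4*/*Msh5* went from a mean log2 ratio of 0.70 to 0.54 (adjusted exact permutation p = 0.486). *Dmc1*/*Prdm9* (shift 0.42, adjusted exact permutation p = 0.27) and *Dmc1*/*Mei1* (shift -0.25, adjusted exact permutation p = 0.158) also overlapped between the sides. So did *Prdm9*/*Mei1*, with a shift of -0.66. *Mei1*/*Msh4* and *Msh5*/*Mlh3* both had shifts of -0.51 with an adjusted exact permutation p of 0.0706. These misses do not show that the ratios were equal. The *Msh4*/*Msh5* ratio was lower at PND 7, at -0.64 and -0.68, than in any later mouse, where it lay between 0.33 and 1.14.

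**Figure D4:**
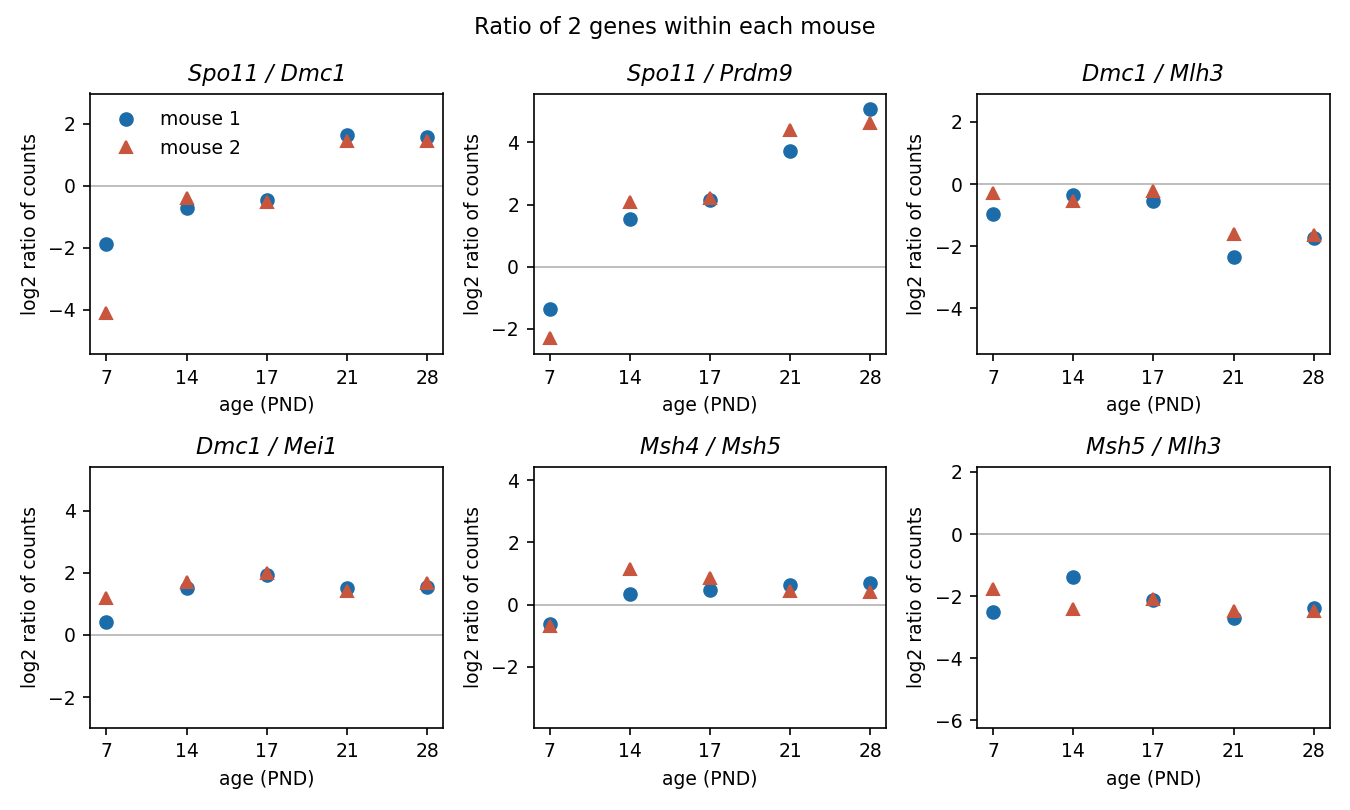
Log2 ratio of the counts of 2 genes within each mouse (0.5 added to each count) by age, for 6 of the 21 pairs, all panels spanning the same number of log2 units; circles are mouse 1 and triangles mouse 2. *Spo11*/*Dmc1* moves from between -0.72 and -0.41 at PND 14 and 17 to between 1.44 and 1.63 at PND 21 and 28, while *Msh4*/*Msh5* overlaps between those ages.

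Synaptonemal complex and cohesin genes of early meiotic prophase gave a further measure, chosen after the values were seen and given as a description. The summed level of 8 such markers (*Sycp1*, *Sycp3*, *Syce1*, *Syce2*, *Smc1b*, *Rec8*, *Stag3* and *Hormad1*) had means of 551, 1730, 1940, 2010 and 2560 CPM from PND 7 to 28, without a fall after PND 17. *Dmc1* counts were 4.52%, 3.83%, 3.82% and 4.18% of the counts of these markers in the PND 14 and 17 mice and 1.51%, 2.02%, 1.34% and 1.54% in the PND 21 and 28 mice. *Spo11* counts were 2.75%, 2.88%, 2.80% and 2.87% in the former and 4.67%, 5.48%, 3.95% and 4.18% in the latter. Relative to these markers, *Dmc1* was thus lower and *Spo11* higher in all 4 older mice. The markers did not move as one, since edgeR called *Syce1* (1.41) and *Rec8* (1.26) higher in the pooled comparison and the other 6 not. Against the 8 pachytene markers the *Spo11* share went the other way, from 2.46%, 2.20%, 1.64% and 2.33% at PND 14 and 17 to 1.70%, 1.65%, 0.95% and 1.07% at PND 21 and 28, and the *Dmc1* share went from between 2.24% and 4.05% to between 0.323% and 0.609%. At PND 7 *Dmc1* was at 4.34% and 7.52% and *Spo11* at 1.18% and 0.429% of the early prophase marker counts. Of the pachytene marker counts, which were low at that age (mean sum 37.4 CPM), *Dmc1* was at 68.4% and 103% and *Spo11* at 18.6% and 5.9%.

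Other genes of meiotic recombination were taken as 5 lists with 61 symbols, of which 59 were found and tested. Between PND 7 and 14, 15 of the 59 rose and 1 fell, where 13.5% of all genes were called higher and 5.43% lower, and the counts were the same without PND 14 mouse 1. The median log2 fold change of the 59 was 0.42, and that of all genes 0.106. All 15 were on the lists of strand exchange (9 of 21 genes) and of crossover designation and resolution (6 of 15). The gene that fell was *Rad50*, of the end-processing complex (-1.34, SE 0.34, edgeR adjusted p = 0.0187). On the list of break formation and hotspots edgeR called 0 of 8 genes, with 1 (*Zcwpw1*) at an unadjusted p under 0.05. Among the mismatch repair relatives it called 0 of 5, with 0 at that level.

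**Figure D5:**
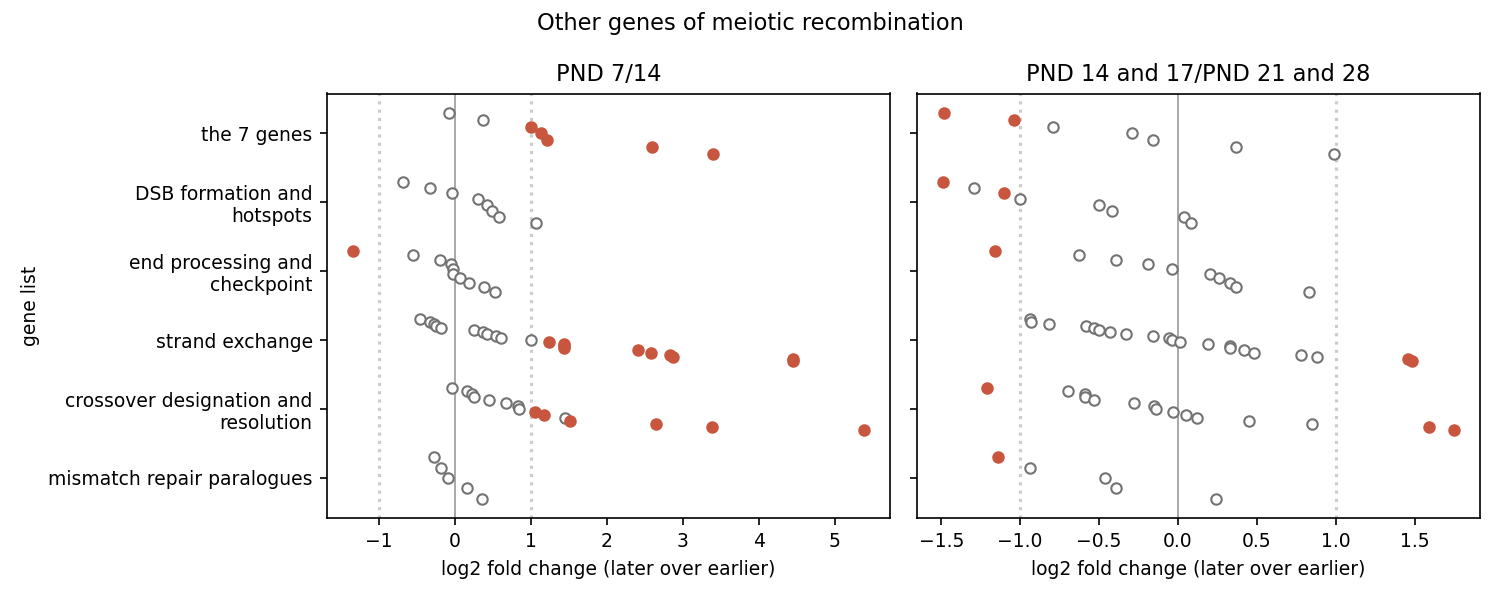
Log2 fold change (x axis, later over earlier) of the 7 genes and of the 59 other recombination genes by list, for PND 7/14 and for PND 14 and 17 against PND 21 and 28; each point is 1 gene, filled where it passed the adjusted p and 2-fold criteria, and dotted lines mark 2-fold. In PND 7/14 the filled points on the higher side are 9 strand exchange and 6 crossover genes beside 5 of the 7.

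The largest rises in that interval were those of *Cntd1*, *Meiob* and *Spata22*. *Meiob*, which encodes a single-stranded DNA-binding protein of recombination sites, had 3.6 and 1.34 CPM at PND 7 and 46.1 and 66.4 CPM at PND 14 (4.45, SE 0.39, adjusted p = 2.92e-05). *Spata22*, the gene of its partner, had 4.51 and 0.537 CPM and then 48.5 and 68.5 CPM (4.45, SE 0.57, adjusted p = 0.00034). *Cntd1*, which encodes a cyclin-like factor needed for crossovers, went from 2.6 and 2.55 CPM to 70 and 148 CPM (5.39, SE 0.38, adjusted p = 1.13e-05). Its value is uncertain, since 72.1% of its exon bases overlap other genes, mainly *Becn1* on the opposite strand, and whether counting used strand was not stated. *Spata22* shares 27.9% of its exon bases with *Olfr20*. Without PND 14 mouse 1 the rises were 4.66 for *Meiob*, 4.64 for *Spata22* and 5.80 for *Cntd1*, and the fall of *Rad50* was -1.55, all still called.

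Direct partners of the members moved in several ways. *Hfm1*, a helicase gene of the crossover pathway, rose with *Msh4* from 18.4 and 16.8 CPM to 141 and 229 CPM by PND 14 (3.39, SE 0.27, adjusted p = 2.01e-05). *Ccnb1ip1* (2.65, adjusted p = 0.000672) and *Psmc3ip* (2.58, adjusted p = 0.00042), the latter a gene of the complex that aids DMC1, rose by edgeR as well. Without PND 14 mouse 1 *Hfm1* was at 3.67, *Ccnb1ip1* at 2.84 and *Psmc3ip* at 2.92, all called. *Mnd1*, the gene of PSMC3IP's partner, had 0.941 to 5.49 CPM over the 10 mice and was called in no comparison. *Rnf212* was at 0 to 2.9 CPM, close to the limit of detection, and edgeR called it in PND 7/28 alone (2.51, SE 1.01, adjusted p = 0.0478). *Top6bl*, which encodes the partner of SPO11, did not follow *Spo11*. It had 9.31 and 7.12 CPM at PND 7, 13 and 9.07 at PND 14, 8.65 and 4.11 at PND 17, 3.82 and 5.94 at PND 21, and 2.59 and 0.923 at PND 28, and its fitted difference from PND 7 to 28 was -2.14 (SE 0.57, adjusted p = 0.00712). The late values of *Top6bl* rest on few reads, and that of PND 28 mouse 2 was close to the limit of detection (0.692 CPM for 3 counts in that mouse).

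In the comparison of PND 14 and 17 with PND 21 and 28, 4 of the 59 genes rose and 5 fell, against 21% and 8.03% of all genes. Without PND 14 mouse 1 the counts were 4 and 8, with DESeq2 5 rose and 3 fell, and with library totals 4 rose and 11 fell. *Top6bl* (-1.49, adjusted p = 0.00933) and *Zcwpw1*, which encodes a reader of the PRDM9 mark (-1.10, adjusted p = 0.000252), fell in edgeR as *Prdm9* did. For *Top6bl* the mice of the younger and older ages overlapped. *Tex11*, an X-linked crossover gene, fell by 1.21 (adjusted p = 0.000152) and *Atm* by 1.16 (adjusted p = 0.000131), on the log2 scale in edgeR. *Slx4*, a scaffold for DNA-cutting enzymes, rose by 1.75 (adjusted p = 3.1e-05), *Prr19* by 1.59 (adjusted p = 0.000165), *Brme1* by 1.48 (adjusted p = 0.000689) and *Rpa1* by 1.46 (adjusted p = 7.13e-05). From PND 17 to 21, where DESeq2 had 4 higher and 1 lower and library totals 2 higher and 4 lower, edgeR called 3 higher (*Slx4*, *Prr19* and *Rpa1*) and 2 lower, against 9.29% and 1.05% of all genes. These 5 calls rested on single mice, their number being 1 without PND 17 mouse 1, 0 without PND 17 mouse 2 and 1 without PND 21 mouse 1. From PND 21 to 28 edgeR called none of the 59, with 7 at an unadjusted p under 0.05. DESeq2 called none of the 59 there either.

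*Msh6* was called in no comparison, and *Pms2* had an adjusted p of 0.0473 at a log2 fold change of -0.54 from PND 7 to 28, under the fold threshold. Between PND 7 and 28, 17 of the 59 genes rose and 9 fell, against 32.2% and 23.4% of all genes, led by *Cntd1* (5.92), *Brme1* (4.40) and *Meiob* (4.16) among the rises and by *Top6bl*, *Rad50* (-1.68) and *Atm* (-1.60) among the falls, and with library totals 16 rose and 14 fell.

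Across the 10 mice, *Spo11* and *Mlh3* were the most alike of the 21 pairs, with a Pearson r of 0.95 of log2(CPM + 0.5), followed by *Msh4* and *Msh5* (0.92), and *Prdm9* and *Mei1* had 0.83. These values are a description, since the mice share their ages, and r does not depend on the size of a change. Among the 9891 protein-coding genes that averaged 10 CPM or more, the 3 most like *Spo11* were *Ptpn20* (0.997), *Clgn* (0.996) and *Tmem59l* (0.995). For *Prdm9* they were *Zfp790* (0.984), *Dhx33* (0.983) and *Rcbtb1* (0.979), and for *Mei1* *Hist1h1c* (0.982), *Slc27a4* (0.974) and *Tbc1d10b* (0.969). *Dmc1* was most like *Unc119b* (0.976), *Mcm8* (0.951), itself a helicase gene of meiotic repair, and *Slc16a1* (0.951). *Tmem170* was among the 3 most like both *Msh4* (0.979) and *Msh5* (0.93), with *Npm3* (0.972) and *Hemt1* (0.971) for *Msh4*, and *Ppp5c* (0.958) and *Lrp8* (0.938) for *Msh5*. The genes most like *Mlh3* by r were *Pcgf6* (0.993), *Prok2* (0.986) and *Kif4-ps* (0.984). The sizes of their changes differed. From PND 7 to 21 the mean of *Prok2* went from 0.0501 to 44.8 CPM and that of *Pcgf6* from 29.5 to 120 CPM. *Mlh3* itself went from 48.9 and 48.6 CPM to 156 and 124 CPM.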

How the data were processed

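Whole-testis RNA of 10 mice was sequenced after depletion of ribosomal RNA, as 50 bp reads on a SOLiD instrument. Alignment to mm9 was done by the authors in LifeScope, after which ribosomal, transfer RNA and repeat reads were discarded. The authors deposited counts of uniquely placed reads per Ensembl gene, and RPKM, for 12 libraries. Use of strand and batches was not given in the sources used here. Each PND 7 mouse has 2 barcoded libraries of 1 RNA sample, whose counts were summed and RPKM averaged here. Symbols came from the GENCODE annotation of mm9, which matched 37310 of 37675 genes, and the other 365 had no counts. Of the pathway symbols, *Ankrd31* and *Rmi2* were not matched.

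Counts were tested in edgeR 4.0.16 (R 4.3.3) with TMM scaling, filterByExpr, 1 group per age and all 10 mice (common dispersion 0.0726). SE is the log2 fold change over the square root of F. Ages were compared in order, PND 7 with 28, and PND 14 and 17 with PND 21 and 28. The scripts were tested on simulated data. Alternatives were DESeq2 1.42.0, limma 3.58.1 on log2(RPKM + 1) or log2(RPKM + 0.1), other scalings and filters, the study's criteria (p of 0.01, 2-fold, 10 RPKM) and leaving out each mouse. The members, lists and motifs were chosen with earlier results of these data known. Genes named besides the members were the 3 called pathway genes with the largest rise and fall in each comparison, 13 partners whatever their values and the 3 most alike in pattern; some of these are not reported here. *Rpa1* in the pooled comparison was named after its values were seen. Columns of exons with more than 10 reads (deposited, other unit) move with depth. P-values of the fits rest on the spread between the 2 mice of an age, pooled over all 10 mice. Those of the ratio test come from exchanging the 4 mice of PND 14 and 17 with the 4 of PND 21 and 28.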

Additional observations from a re-analysis of the deposited data

How the results depend on the processing

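Of the 966 values of the 7 genes under the alternatives, 877 kept direction and side of the threshold, 31 lost the call, 14 gained it and 44 changed sign, and every sign change was of an uncalled value. Among counts of the 7 genes called, PND 7/14 gave 3 with limma on log2(RPKM + 0.1) and with the study's criteria, PND 17/21 gave 0 with limma on log2(RPKM + 0.1), PND 7/28 gave 1 with the study's criteria, and PND 14 and 17 against PND 21 and 28 gave 4 with no fold threshold and 1 with the study's criteria. Among the 59 pathway genes, PND 17/21 gave 9 with no fold threshold and 1 with limma on log2(RPKM + 0.1), and the pooled ages gave 15 with library totals, 14 with no filter on low counts and with limma on log2(RPKM + 0.1), and 25 with no fold threshold. The study's criteria ask for a difference of 10 RPKM. *Prdm9*, *Mei1* and *Msh5* could not meet it, with at most 4.21, 6.7 and 6.85 RPKM in any mouse. Dropping the fold threshold can only add calls. The cause of the other differences was not tested. The median log2 fold change of all genes under library totals was 0.199, -0.093, -0.097, -0.19, -0.22 and -0.308 in PND 7/14, 14/17, 17/21, 21/28, 7/28 and the pooled ages.

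Leaving out 1 mouse gave 3 to 5 of the 7 genes and 14 to 21 pathway genes in PND 7/14, 0 to 1 and 0 to 6 in PND 17/21, 4 to 5 and 25 to 33 in PND 7/28, and 2 to 2 and 9 to 14 for the pooled ages. In PND 17/21 the pathway count was 1, 0 and 1 without PND 17 mouse 1, PND 17 mouse 2 and PND 21 mouse 1, and for the pooled ages it was 14 without PND 21 mouse 2. An age left with 1 mouse is assumed to vary like the others. The ratio pairs that passed numbered 15 with pseudocounts of 1 and 0.1 and with RPKM ratios, but 0 to 0 with a mouse left out, where the exact permutation test of 4 against 3 mice cannot go below p = 0.0571.

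Values that changed sign were as follows, on the log2 scale. *Prdm9* in PND 7/14 was 0.01 with library totals, 0.02 with limma on log2(RPKM + 1) and with the study's criteria, and 0.03 with limma on log2(RPKM + 0.1). *Mlh3* in PND 14/17 was -0.02 with library totals and in all 3 limma settings. *Msh5* in PND 17/21 was 0.07, and *Msh4* in PND 21/28 was 0.01, with DESeq2 and RLE scaling. *Spo11* in PND 21/28 was -0.19 with library totals and limma, -0.01 with no filter, -0.09 with only those mice and -0.05 with the small structural RNAs and mitochondrial genes taken out. *Dmc1* in PND 21/28 was -0.16 with library totals and limma on log2(RPKM + 0.1), -0.15 in the other limma settings, -0.06 with only those mice and -0.03 without small RNAs, and in PND 7/28 it was -0.14 with library totals and -0.09 with limma. With a mouse left out, the ranges that crossed 0 were -0.34 to 0.28 for *Prdm9* in PND 7/14; in PND 14/17, -0.06 to 0.44 for *Spo11*, -0.44 to 0.17 for *Msh5* and -0.14 to 0.26 for *Mlh3*. They were -0.13 to 0.07 for *Msh5* in PND 17/21. In PND 21/28 they were -0.06 to 0.12 for *Spo11*, -0.12 to 0.25 for *Dmc1*, -0.3 to 0.15 for *Mei1* and -0.21 to 0.13 for *Msh4*. They were -0.11 to 0.57 for *Dmc1* in PND 7/28 and -0.29 to 0.02 for *Msh5* over the pooled ages.

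With the mouse number as a replicate block, 5, 0, 1, 0, 4 and 2 of the 7 genes and 16, 0, 5, 0, 25 and 9 pathway genes were called in the 6 comparisons, and 5 of the 7 passed the F test. Over the 10 pairs of ages, the correlation of same-numbered mice's deviations was -0.208 to 0.368, over 0.1 in 2. The highest was that of PND 14 with PND 21, and whether these libraries share a batch was not tested. Depth limits the late values of *Prdm9*, with 18 to 30 reads a mouse at PND 21 and 28.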
